A study of Mus musculus with 9 samples.

Results

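CC chemokines are small secreted proteins, named for adjacent cysteines near their amino end, that draw leukocytes out of the blood by binding G protein-coupled receptors. The genes described here are those of the ligands that attract mainly eosinophils and monocytes: Ccl11, Ccl2, Ccl3, Ccl4, Ccl5, Ccl6, Ccl7, Ccl8, Ccl9 and Ccl12. They were chosen by gene symbol, and 9 of the 10 had a probe, with 1 probe each, among 26423 probes that stood for 23631 features; Ccl8 had no probe under its symbol and is not analysed here. In the nasal lining, fibroblasts, epithelium, macrophages and lymphocytes are known sources of these ligands. Glucocorticoids are known to lower the transcription of many chemokine genes in cultured cells.

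RNA from the olfactory mucosa of wild-type male C57BL/6 mice aged 6 to 8 weeks was measured on 9 single-colour arrays, 3 in each of 3 groups. The WK2 mice were injected intraperitoneally with dexamethasone, a synthetic glucocorticoid, at 1 mg/kg every day for 2 weeks. The D1 mice received dexamethasone at the same dose of 1 mg/kg for 1 day. The control mice received saline alone for 2 weeks, so D1 and control also differed in how long injections lasted. Of the 9 mice of each group, 3 samples were chosen for the arrays by how well they expressed olfactory marker protein, so Omp and genes that vary with it were part of the selection. Nothing in the labels says whether a sample is 1 animal, so the p-values rest on a spread between samples that could be technical alone.

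Array medians ran from 1202 to 1447 intensity units, and precision is limited by having 3 arrays a group. Markers of the labelled tissue were read first: Omp of mature olfactory neurons (478900 to 540038 in WK2, 331835 to 490368 in D1 and 300267 to 411529 in control) and Cyp2g1 of supporting cells were measured on every array. Of 15 such markers 12 had a probe, all 12 above 0 on every array, as nearly all probes were, so these values are a weak check of the tissue. Intensities of different probes cannot be set against each other, so levels are compared within a gene only. In RNA of a whole tissue, fewer cells of a type and less RNA per cell cannot be told apart.

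In the RefSeq annotation of the mouse genome (GRCm38.p6) the 10 genes lie in 2 clusters on chromosome 11. Ccl2, Ccl7, Ccl11, Ccl12 and Ccl8 follow each other with no other protein-coding gene between them, and so do Ccl5, Ccl9, Ccl6, Ccl3 and Ccl4. RefSeq's table of promoter windows, which run from 250 bases before to 50 after a gene's start, held Ccl12, Ccl9, Ccl6, Ccl3 and Ccl8. Stretches just before the start are shown for Ccl12, the neighbour of Ccl11 with both a probe and a window, and for Ccl9, which varied most between WK2 arrays. Capitals mark matches to the motifs named after them. The Ccl12 stretch is chr11:82101775-82101844 on the plus strand, and the Ccl9 stretch is chr11:83578637-83578736 on the minus strand (both GRCm38.p6, written 5′ to 3′).
Ccl12: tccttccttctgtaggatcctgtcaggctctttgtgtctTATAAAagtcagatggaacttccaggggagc
Ccl9: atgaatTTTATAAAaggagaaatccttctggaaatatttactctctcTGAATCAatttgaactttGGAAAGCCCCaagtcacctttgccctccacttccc

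The 6 motifs were searched on both strands over the whole window. TATAAA, the TATA box, stood 31 bases before the start of Ccl12 and 92 bases before that of Ccl9, where it overlapped a match on the other strand. A further match lay on the minus strand 224 bases before the start of Ccl9, and 14.2% of 27025 promoters held the motif. TGANTCA, bound by AP-1, was found in Ccl9 and in 7.93% of all promoters. A loose NF-kB-like motif, GGG and CC with any 5 bases between, was found on the minus strand in Ccl9 and in 50.4% of promoters. CCAAT (37.9% of promoters), a STAT motif, TTC and GAA with any 4 bases between (6.99%), and a full glucocorticoid receptor motif, GNACA and TGTNC with any 3 bases between (0.463%), had no match in the 4 measured genes with a window. Ccl3 and Ccl6 had no match to any of the 6. These matches are letters in a window and were not set against any measurement of binding.

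Ccl11, eotaxin, which attracts eosinophils through the receptor Ccr3, was the member that rose after 2 weeks of dexamethasone. Its intensity was 2673, 2709 and 2474 on the 3 WK2 arrays, 1527, 1387 and 879 on the D1 arrays, and 637, 1026 and 541 on the control arrays. Every WK2 array lay above every D1 and control array, and the D1 and control ranges overlapped. Means were 2618 ± 127 in WK2, 1264 ± 340.5 in D1 and 735 ± 257 in control (SD, n = 3 each).

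The WK2 to control comparison asks what 2 weeks of the drug changed. The log2 difference of Ccl11 was 1.81 ± 0.25 (SE), a 3.51-fold increase with a 95% interval of 2.37 to 5.20 (adjusted p = 0.0317, limma). It was the only 1 of 9 members to pass an adjusted p of 0.05, where 1.61% of all features passed, 0.432% as higher and 1.18% as lower. The difference stayed between 1.63 and 2.07 when any 1 array was left out. The limma call ended without control replicate 1 (adjusted p = 0.0923), control replicate 3 (0.149), D1 replicate 1 (0.0539), D1 replicate 2 (0.0576), WK2 replicate 2 (0.0857) or WK2 replicate 3 (0.0781). It also ended with the replicate number as a block (0.0659) and in a fit of the WK2 and control arrays alone (0.0667).

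After 1 day Ccl11 lay 0.76 ± 0.25 (SE) above control on the log2 scale, with a 95% interval of 0.19 to 1.32. It did not pass (unadjusted p = 0.0139, adjusted p = 1.00, limma), and 0% of features passed in this comparison. The WK2 to D1 difference was 1.06, or 2.08-fold with a 95% interval of 1.41 to 3.08 (unadjusted p = 0.00196, adjusted p = 0.129, limma). In order of level WK2 therefore stood above D1 and control without overlap, while the D1 and control arrays overlapped and their difference did not pass after adjustment.

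**Figure D1:**
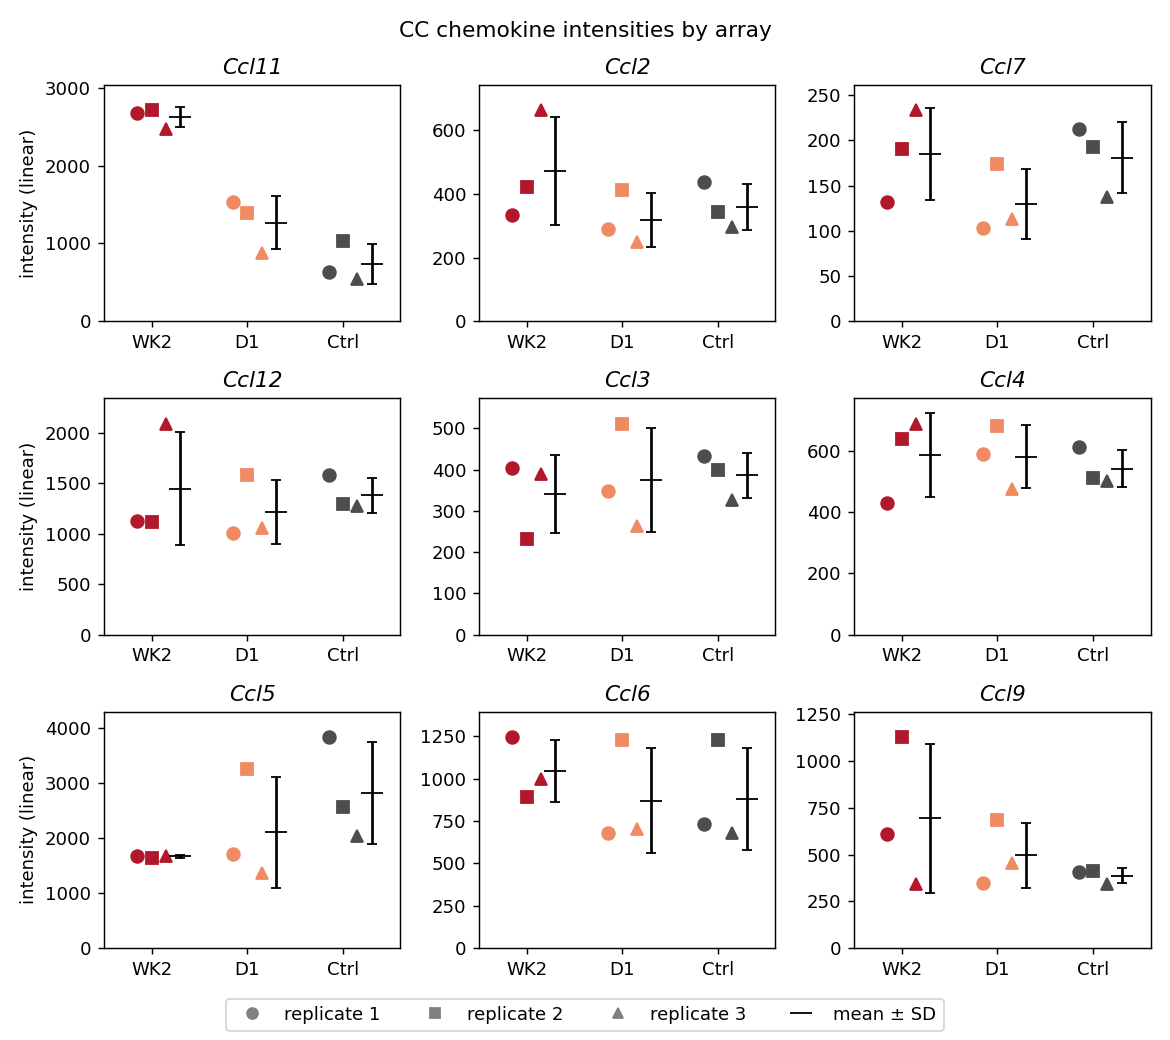
Intensity (linear, y axis from 0) of the 9 CC chemokine genes by group (WK2, D1, Ctrl on the x axis); symbols are arrays by replicate number, and bars show the mean ± SD of 3 arrays. In the Ccl11 panel the WK2 arrays sit at 2474 to 2709, above all others; in the Ccl5 panel they sit together at 1639 to 1679.

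Ccl2, Ccl7 and Ccl12 encode the monocyte chemoattractant proteins, ligands of Ccr2, which brings monocytes from bone marrow and blood into tissue. Their groups overlapped in every comparison and none of them passed the test. Ccl2 had 335, 423 and 663 in WK2, 289.8, 414 and 250.4 in D1, and 439, 343 and 296 in control. WK2 replicate 3 was its highest array, and the WK2 to control log2 difference of 0.32 (95% interval -0.24 to 0.89, adjusted p = 0.392, limma) was 0.07 without that array. The D1 to control difference of Ccl2 was -0.16 (interval -0.73 to 0.40).

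Ccl7 had 132, 190.0 and 233 in WK2, 103, 174 and 113 in D1, and 213, 193 and 137 in control. Its probe was the only 1 of the members' 9 that fell among the dimmest 25% of features. Its WK2 to control log2 difference was 0.02 (95% interval -0.48 to 0.51) and its D1 to control difference was -0.37 (-0.86 to 0.13). Neither interval lay clear of 0.

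Ccl12, known from the mouse, had 1127, 1116 and 2089 in WK2, 1002, 1578 and 1057 in D1, and 1578, 1291 and 1269 in control. WK2 replicate 3 again stood far above the other WK2 arrays, which lay below all 3 control arrays. The WK2 to control log2 difference was 0.01 (95% interval -0.57 to 0.59) with that array and -0.28 without it. For Ccl7 and Ccl12 the sign of this difference turned under quantile normalization and median centring. The intervals of these 3 genes allow changes of up to 1.85-fold upward (Ccl2) in WK2.

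Ccl3 and Ccl4, the macrophage inflammatory proteins, attract monocytes and T cells. Ccl3 had 403, 233 and 389 in WK2, 348, 511 and 263 in D1, and 432, 399 and 326 in control. Ccl4 had 430.2, 637 and 688 in WK2, 587, 679.7 and 474 in D1, and 611, 510.4 and 501 in control. The ranges of both genes overlapped in all comparisons. The WK2 to control log2 difference was -0.18 (95% interval -0.73 to 0.38) for Ccl3 and 0.09 (-0.36 to 0.53) for Ccl4, which was -0.12 under quantile normalization. Ccl4 had the narrowest intervals of the 9 members, and in all 3 comparisons they stayed within 0.53 of 0 on the log2 scale.

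Ccl5, RANTES, made by T cells, NK cells and macrophages, is a ligand of Ccr1 and Ccr3 among others. It had 1677, 1639 and 1679 in WK2, 1705, 3255 and 1360.3 in D1, and 3841, 2571 and 2031 in control. All 3 WK2 arrays lay below all 3 control arrays, a lack of overlap in this direction that 13.8% of features showed, while the D1 arrays spanned most of the range. The WK2 arrays differed little among themselves, with an SD of 22.3 intensity units against 1009 in D1 and 929 in control. The WK2 to control log2 difference was -0.69 ± 0.31 (SE), with a 95% interval of -1.39 to 0.0037, and did not pass (unadjusted p = 0.0510, adjusted p = 0.169, limma). The D1 to control difference was -0.46, and -0.82 without D1 replicate 2.

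Markers of T and NK cells were read beside Ccl5. Of 14 such genes 13 had a probe, and their summed intensity was 11363 to 13738 in WK2, 11805 to 15732 in D1 and 13680 to 16068 in control. The brightest probe, Cd3e, gave the most to this sum, with a mean of 4581 in WK2 and 7530 in control. The lower sum in WK2 therefore follows that probe and does not describe the list. In WK2 against control 8 lay above and 5 below, with a median log2 difference of 0.06 beside 0.14 over all features, and 0 passed. Cd3e, a chain of the T cell receptor complex, lay at -0.74 (adjusted p = 0.0859, limma), while Cd3g of the same complex lay at 0.69 (0.224) and Cd8a, the cytotoxic T cell co-receptor, at 0.65 (0.259). None of the 13 was at or below 0 on any array, and the part of these cells in the Ccl5 values was not tested.

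Ccl6 and Ccl9 are rodent chemokines of macrophages and other myeloid cells that act through Ccr1. Ccl6 had 1247, 894 and 998 in WK2, 681, 1229 and 702 in D1, and 734, 1226 and 679 in control. Its groups overlapped, and its WK2 to control log2 difference was 0.27 (95% interval -0.34 to 0.88). Ccl9 had 609, 1129.6 and 344 in WK2, 347, 687 and 455 in D1, and 405, 414 and 342 in control.

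The WK2 arrays of Ccl9 were the most spread of any member, with an SD of 0.79 on the log2 scale against 0.45 in D1 and 0.13 in control. Its WK2 to control difference was 0.63 (95% interval -0.17 to 1.43, adjusted p = 0.252, limma). It was 0.23 without WK2 replicate 2 and 1.02 without WK2 replicate 3. The adjacent genes Ccl6 and Ccl9 had their highest value on the same array in D1 and in control (replicate 2 of each) but on different arrays in WK2. D1 replicate 2 was the highest D1 array for 8 of 9 members and 36.8% of all features. Control replicate 2 was the highest control array for 28.3% of all features.

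**Figure D2:**
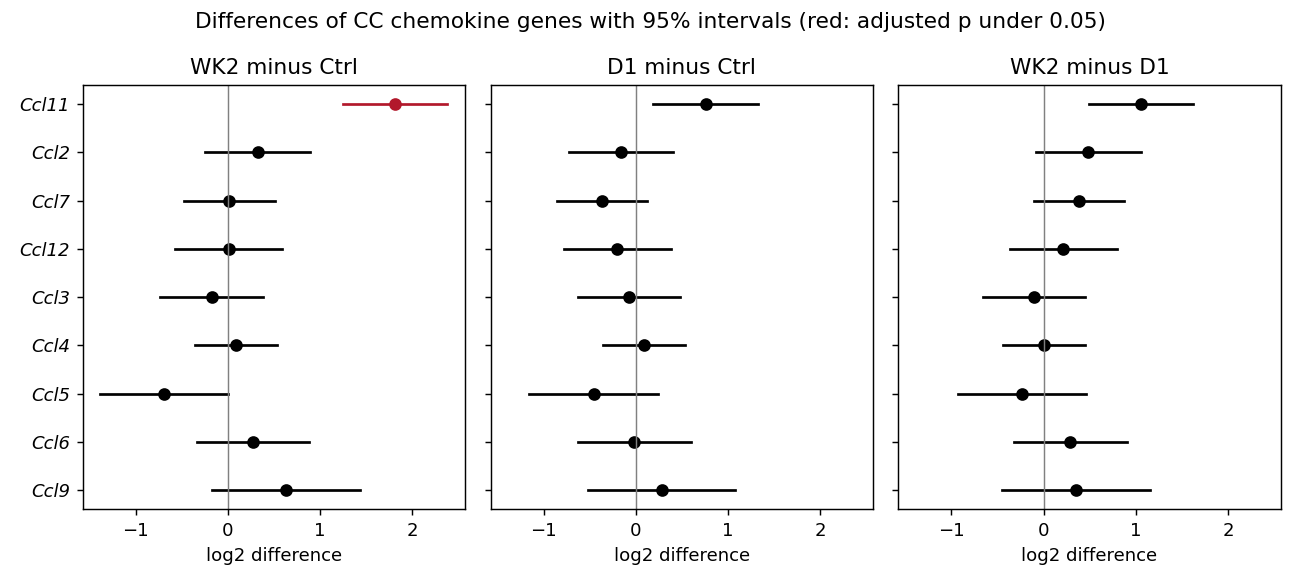
Log2 difference (x axis) of each CC chemokine gene with its 95% interval from the limma fit, in 3 panels for WK2 minus Ctrl, D1 minus Ctrl and WK2 minus D1; red marks an adjusted p under 0.05. Ccl11 in WK2 minus Ctrl, at 1.81, is the 1 red point.

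Over the 9 members, the median log2 difference was 0.09 in WK2 against control, beside 0.14 over all features. It was -0.07 in D1 against control, beside 0.03, and 0.29 in WK2 against D1, beside 0.10. Against control 7 members lay above and 2 below in WK2, while 3 lay above and 6 below in D1. These comparisons share the control arrays. Groups that did not overlap were seen for Ccl11 (higher) and Ccl5 (lower) in WK2 against control, where 37.6% of features had such groups. They were seen for 0 members in D1 against control, where 10.1% of features had them, 4.92% as higher and 5.19% as lower. In WK2 against D1 it was Ccl11 alone, higher, as were 18.7% of features, and 0 members passed there (adjusted p 0.129 to 1.00, limma), where 0.0931% of features passed, 0.0296% as higher and 0.0635% as lower.

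In D1 and in control, many members were high or low on the same array. D1 replicate 2 gave the highest D1 value for 8 of 9 members, all but Ccl11, and for 36.8% of all features. Control replicate 3 gave the lowest control value for 9 of 9 members and for 24.4% of all features. In WK2 the highest value fell on replicate 3 for 5 of 9 members, and for 40.8% of all features, and on the other arrays for 2 members each. Without D1 replicate 2 the D1 to control differences were -0.34 for Ccl2, -0.53 for Ccl7, -0.40 for Ccl12, -0.30 for Ccl3, -0.28 for Ccl6 and 0.67 for Ccl11, and 0.04 for Ccl9 and -0.03 for Ccl4. Without control replicate 3 those in WK2 were 1.63 for Ccl11 and -0.90 for Ccl5.

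**Figure D3:**
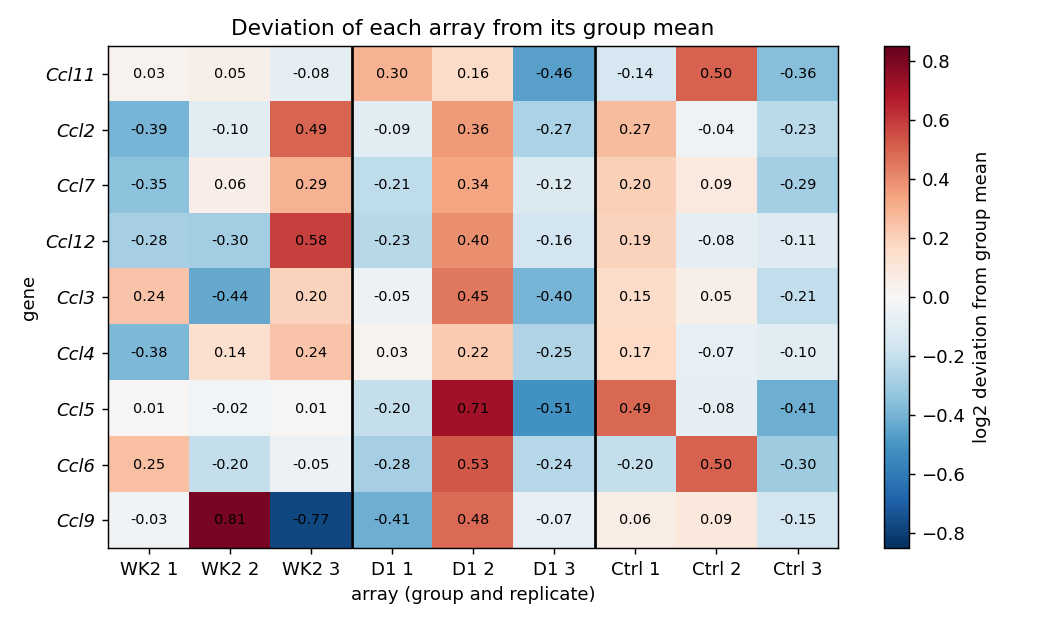
Log2 deviation of each array (x axis, group and replicate) from its group mean for the 9 CC chemokine genes (y axis), with the value printed in each cell and red for above the mean. D1 replicate 2 is above its group mean for every member, and control replicate 3 is below it for every member.

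Markers of monocytes and macrophages were high on the same D1 array, but not they alone. The sum of the T and NK cell markers was highest there too (12431, 15732 and 11805 in D1, in order of replicate). Of 16 monocyte and macrophage genes 13 had a probe, and none was at or below 0 on any array. Their summed intensity was 65631, 65431 and 88248 in WK2, 65435, 95089 and 56682 in D1, and 66460.2, 75902 and 70556 in control, in order of replicate. By this sum D1 replicate 2 and WK2 replicate 3 were the highest of their groups. The brightest probes (C1qa, Csf1r, C1qb and C1qc) gave the most to it. The markers were split on WK2 replicate 3: C1qa had 16961, 16402 and 29993 in WK2, while Cd14 had 7785, 7084 and 4701. The part of these cells in the chemokine values was not tested. In WK2 against control 7 of the 13 lay above and 6 below, with a median of 0.11 beside 0.14 over all features, and 0 passed. Cx3cr1, the fractalkine receptor of resident monocytes and macrophages, lay at -0.64 (adjusted p = 0.0706, limma) and did pass under quantile normalization and median centring. Mrc1, the mannose receptor, lay at 0.54 (adjusted p = 0.0964, limma) and Adgre1, an adhesion receptor of macrophages, at 0.58 (0.10997).

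Among the receptors, Ccr2, the monocyte receptor for Ccl2, Ccl7 and Ccl12, had 2277, 2017 and 3651 in WK2, 1567, 4329 and 1147 in D1, and 1694, 1931 and 1109.7 in control. Its WK2 to control log2 difference was 0.72 (95% interval -0.26 to 1.69, adjusted p = 0.280, limma). WK2 and control did not overlap, as was so in this direction for 23.8% of features, and the D1 arrays spanned both. Ccr1 had 438 on D1 replicate 2, against 167 and 149 on the other D1 arrays. Ccr3, the eosinophil receptor for Ccl11, had 136, 104 and 107 in WK2, 104, 123 and 69.4 in D1, and 80.5, 186 and 85.9 in control. Its groups overlapped, with a WK2 to control difference of 0.04 (interval -0.50 to 0.58) that turned to -0.21 under quantile normalization. The Ccr3 probe was dim, as was that of Ccr1, with single arrays of Ccr3 at 69.4 to 186 beside array medians of 1202 to 1447. Values this low are a weak test of whether Ccr3 changed.

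Of 15 CC chemokine receptor genes, atypical receptors included, 14 had a probe and 1 rose in WK2 against control. That was Ackr4, an atypical receptor that takes up Ccl19, Ccl21 and Ccl25 without signalling for migration. Ackr4 had 14933, 12009 and 17038 in WK2, 6857, 6999 and 6569.9 in D1, and 5559, 7176 and 4138 in control. It was 2.63-fold higher in WK2 than in control (log2 1.40 ± 0.21 SE, adjusted p = 0.0357, limma), with every WK2 array above all others. The Ackr4 call ended without any 1 array other than control replicate 2 or WK2 replicate 1 (adjusted p 0.0629 to 0.149, limma). Over the 14 receptors 12 lay above and 2 below control in WK2, with a median of 0.19 beside 0.14 over all features, and 0 of 14 passed in D1 against control or in WK2 against D1.

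Of 12 other CC chemokine genes 8 had a probe. In WK2 against control 1 of the 8 rose: Ccl20, which attracts Ccr6-bearing lymphocytes and dendritic cells, had 11484, 4532 and 8102 in WK2, 777, 1772 and 599.6 in D1, and 1579.7, 1212 and 1320.1 in control (5.35-fold over control, adjusted p = 0.0400, limma). That call ended without any 1 array other than D1 replicate 2 or WK2 replicate 1 (adjusted p 0.0648 to 0.149, limma). Ccl24, eotaxin-2, which also attracts eosinophils, lay at 0.76 ± 0.29 (SE) without passing (adjusted p = 0.126, limma), and 7 of the 8 lay above control. Ccl28 had 12485, 15790 and 11815 in WK2 and 4499, 7796 and 4822 in control. It lay at 1.25 (adjusted p = 0.166, limma) and Ccl17 at 0.69 (0.156), also without passing. Against D1 1 of 8 rose in WK2, again Ccl20 (log2 2.93, adjusted p = 0.0336, limma). That call ended without any 1 array other than D1 replicate 2 or WK2 replicate 2 (adjusted p 0.0597 to 0.178, limma), with a pseudocount of 500 (0.0925), with the replicate block (0.105) and in the fit of the 2 groups alone (0.1595). In D1 against control 0 passed.

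Eosinophil markers were read beside Ccl11. Of 12 such genes 8 had a probe, the Ear genes having none under their symbols, and none was at or below 0 on any array. In WK2 against control 4 lay above and 4 below, with a median of -0.01 beside 0.14 over all features, and 0 passed. Prg2, the major basic protein of eosinophil granules, had 9492, 12888 and 18662 in WK2, 21641, 26537 and 7331 in D1, and 8537.5, 74635 and 18141 in control. Control replicate 2 stood far above all other arrays. It was also the highest control array for Ccl11, as it was for 28.3% of all features. The WK2 to control log2 difference of Prg2 was -0.78 (95% interval -2.38 to 0.82), and 0.08 without control replicate 2. Epx, eosinophil peroxidase, had 4694, 1974 and 1906 in WK2 and 2245, 6687 and 3695 in control, and its groups overlapped. Its WK2 to control log2 difference was -0.54, and -0.96 to -0.14 with 1 array left out.

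Fibroblasts are a known source of Ccl11, and their markers were read beside it. All 10 listed genes had a probe and 0 passed in any comparison. Their summed intensity was 603266, 529567 and 983411 in WK2, in order of replicate, with replicate 3 far above the others. It was 361530.5 to 377838 in D1 and 436091 to 486569 in control. The brightest probes (Dcn, Col1a2, Postn and Lum) gave the most to this sum. In WK2 against control 6 lay above and 4 below with a median of 0.09 beside 0.14 over all features, and in D1 2 lay above and 8 below with a median of -0.28. Lum, lumican of the collagen matrix, lay at 0.97 in WK2 (adjusted p = 0.0824, limma), and at 0.60 to 1.18 with 1 array left out. Postn lay at 0.75 (adjusted p = 0.132, limma) and Dcn at 0.68 (0.116). Pdgfrb, a receptor of mesenchymal cells, lay at -0.43 (adjusted p = 0.251, limma). The part of fibroblasts in the Ccl11 values was not tested.

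Mast cells also respond to and release CC chemokines. Of 9 mast cell markers 8 had a probe, and 7 lay above control in WK2 with 0 passing. The median log2 difference was 0.33 beside 0.14 over all features. Hdc and Tpsab1 both lay at 0.78 (adjusted p = 0.0658 and 0.0946, limma) and Cma1 at 0.43 (0.135). Kit, the stem cell factor receptor, went the other way and fell 2.16-fold (log2 -1.11, adjusted p = 0.0396, limma). Kit had 2453, 2254 and 1739.7 in WK2, 3256, 3369 and 3632 in D1, and 3952, 4703 and 5419 in control, with no overlap between the groups. The Kit call ended without any 1 array other than WK2 replicate 1 (adjusted p 0.0648 to 0.149, limma). With the replicate number as a block the calls of Ccl20, Ackr4 and Kit ended too (adjusted p = 0.105 each, limma), as they did in the fit of the WK2 and control arrays alone (0.0667 for Ccl20, 0.113 for Ackr4 and Kit).

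Cytokines and signalling genes known to control these ligands were mixed. Of 26 listed genes 24 had a probe, and 16 lay above and 8 below control in WK2, with a median of 0.26 beside 0.14 over all features; 0 passed in any of the 3 comparisons. Ifng, interferon gamma, an inducer of many chemokines, had 2493, 2223 and 1794 in WK2 and 3091, 3826 and 4462 in control. Its log2 difference was -0.79 ± 0.18 (SE, adjusted p = 0.0553, limma), and it passed in 5 of 18 alternatives. Il33, an epithelial alarmin upstream of eosinophil responses, lay at 0.60 (adjusted p = 0.0578) and Il1r1, the interleukin-1 receptor, at -0.61 (adjusted p = 0.0622). Il4, a type 2 cytokine that induces Ccl11, had a mean of 33.5 in WK2, 34.3 in D1 and 34.4 in control. Its probe was dim, with single arrays at 28.4 to 39.2 beside array medians of 1202 to 1447. Such low values cannot show whether Il4 changed. Elsewhere on the list, in WK2 against control, Tslp lay at 0.86 (adjusted p = 0.0930, limma), Il5 at 0.45 (0.129) and Il13 at 0.39 (0.459). Il1b was the highest of the list at 0.90 (adjusted p = 0.146, limma). Il1a lay at 0.71 (0.122), Tnf at 0.67 (0.0887) and Dusp1 at 0.59 (0.0749). Stat6 lay the other way, at -0.51 (0.119).

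**Figure D4:**
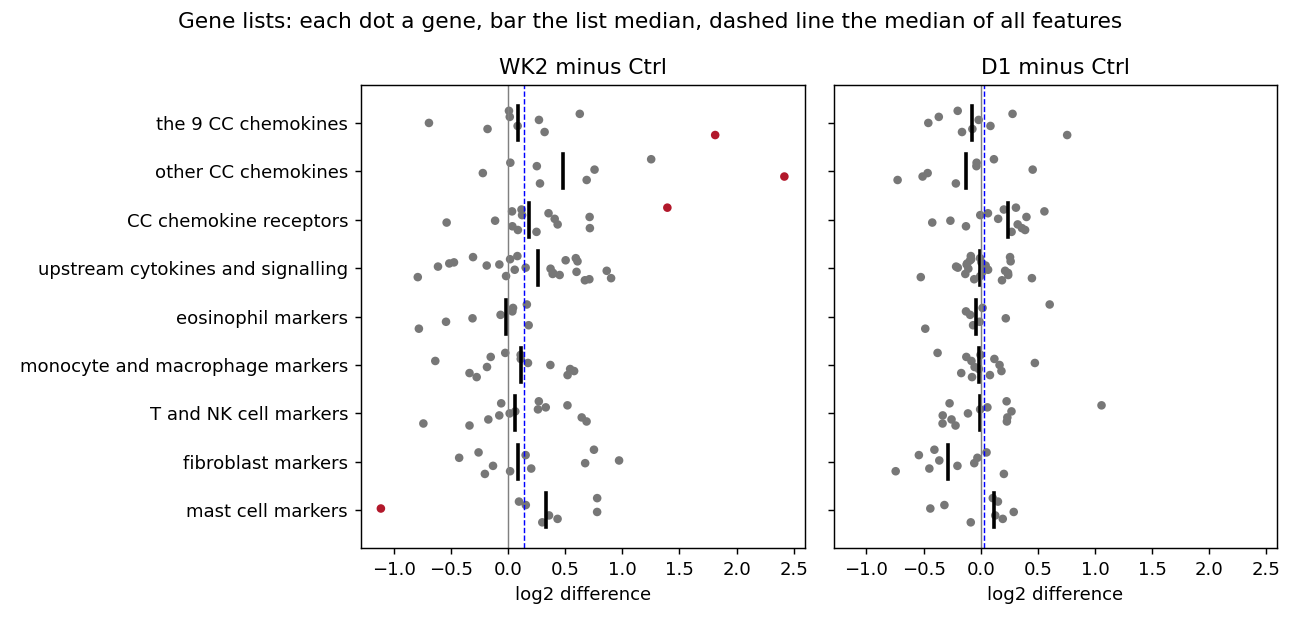
Log2 differences (x axis) of the genes of each list (rows) for WK2 minus Ctrl (left) and D1 minus Ctrl (right); dots are genes, red where the adjusted p is under 0.05, bars are list medians and the dashed line is the median of all features. Red points in WK2 are Ccl11 (1.81), Ccl20 (2.42), Ackr4 (1.40) and Kit (-1.11), and D1 has none.

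The genes whose pattern over the 9 arrays was most like that of Ccl11 were ranked by Pearson's r of log2 values among 10552 named features of at least median intensity. They were Pik3ca, a catalytic subunit of phosphoinositide 3-kinase (r = 0.962), Dnpep, an aminopeptidase (0.962), Rala, a small GTPase (0.956), Cdkn2aip (0.954) and Creg1, a lysosomal glycoprotein (0.944). Their changes were smaller than that of Ccl11: Creg1 averaged 33766 ± 2669 in WK2, 24651 ± 2519 in D1 and 20662 ± 1751 in control (SD, n = 3 each). This ranking is a description, since the arrays fall into 3 groups and the coefficient takes in the differences between them.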

How the data were processed

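The authors deposited 1 table of linear intensity values for 26423 probes on 9 arrays; per the labels' protocols, Trizol RNA was amplified and labelled with Cy5. The sources used here do not give the scanner, the software or the normalization. Between 8 and 18 probes per array were below 0, as after background subtraction. No detection calls, probe sequences, dates or batches were used. Cross-hybridisation between related chemokines was not tested.

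Probes were named through the platform annotation, updated by gene ID through RefSeq's GRCm38.p6 table (21825 probes matched; 21876 had 1 symbol, 0 several and 4547 none). The brightest probe by mean over 9 arrays stood for a gene. Values below 0 were set to 0, and log2(intensity + 50) was tested, so fold changes understate those of dim genes. One limma 3.58.1 model (R 4.3.3) covered all 9 arrays, with Benjamini-Hochberg adjustment over 23631 features per comparison and a threshold of 0.05. Fits were tested on simulated data. An exact permutation test of 3 against 3 cannot go below p = 0.1. Members, lists and tests were chosen with earlier results of these data known. Named were all members, up to 4 genes per list by smallest p in WK2 against control, and the 5 genes most like Ccl11. Ccr1, Ccr2, Ccr3, Col1a2, Omp, Il1a, Il1b, Tnf, Il4, Il5, Il13, Tslp and Stat6 were named after their values were seen. Alternatives were scaling, pseudocount, dim features, probe averaging, moderation, replicate block, a fit of 2 groups and leaving out each array.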

Additional observations from a re-analysis of the deposited data

How the results depend on the processing

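The count of features called in WK2 against control (380) was 1417 under quantile normalization (322 higher, 1095 lower) and 1543 under median centring (219 higher, 1324 lower), beside 102 higher and 278 lower as deposited. It was 131 with a pseudocount of 16, 779 with a pseudocount of 500, 576 without the dimmest 25%, 1 with the replicate block, 0 in the fit of 2 groups (5780 at an unadjusted p under 0.05, limma) and 1 to 955 with 1 array left out. In WK2 against D1 (22, of which 7 higher) it was 75 under quantile normalization (15 higher), 50 under median centring (10 higher), 13 with a pseudocount of 500, 36 without the dimmest 25%, 6 with the replicate block, 2 in the fit of 2 groups and 1 to 27 with 1 array left out. In D1 against control it was 0 (473 at an unadjusted p under 0.05, limma) and 0 to 1 with 1 array left out. Members called in WK2 against control were 1, but 0 with the replicate block, 0 in the fit of 2 groups and 0 to 1 with 1 array left out. The labels name nothing shared by samples of the same replicate number. Correlations of same-numbered deviations were -0.09, -0.00049 and 0.13 between WK2 and control. They were -0.23, 0.0067 and 0.14 between D1 and control, and 0.062, 0.096 and -0.28 between WK2 and D1. Deviations in a group of 3 sum to 0, so these values cannot exclude pairing or a shared batch.

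Quantile normalization took the median of all features in WK2 against control to 0.01, beside 0.14. Signs that turned in WK2 against control were those of Ccl4 (-0.12 under quantile normalization, -0.016 under median centring), Ccl7 (-0.24 and -0.085), Ccl12 (-0.10 and -0.092), Ccr3 (-0.21 and -0.062) and Ccr1 (-0.012 under quantile normalization). Ccl4 also turned in D1 against control under quantile normalization (-0.016) and in WK2 against D1 with a pseudocount of 500 (0.0029). With 1 array left out, WK2 against control ran from -0.30 to 0.041 for Ccl3, -0.035 to 0.27 for Ccl4, -0.13 to 0.19 for Ccl7, -0.28 to 0.16 for Ccl12, -0.11 to 0.31 for Ccr3 and -1.48 to 0.081 for Prg2. D1 against control ran from -0.30 to 0.12 for Ccl3, -0.027 to 0.21 for Ccl4 and -0.28 to 0.23 for Ccl6. WK2 against D1 ran from -0.30 to 0.12 for Ccl3, -0.13 to 0.19 for Ccl4, -0.49 to 0.12 for Ccl5, -0.053 to 0.74 for Ccl9 and -0.079 to 0.41 for Ccl12. Ccl11 kept its sign in all 18 alternatives of each comparison. The cause of these changes was not tested, beyond the smaller number of arrays where 1 was left out.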
